A study of Mus musculus with 3 samples.

Results

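The mitosis and spindle genes are 38 genes whose products carry a cell through chromosome segregation and division: mitotic cyclins and kinases, the spindle checkpoint, the anaphase-promoting complex, centromere and kinetochore proteins, spindle motors and cytokinesis factors. They were taken by gene symbol from the 24067 genes of the deposited table, and all 38 were found, with 1 row each. RNA was measured in primary mouse pre-osteoclasts, the mononuclear precursors that fuse into bone-resorbing osteoclasts, to ask how they respond to fluid shear and what part the cilium gene Ift88 has in it. There were 3 groups with 1 library in each: cells with Ift88 short hairpin RNA (shRNA) that received orbital shear stress, cells with control shRNA that received it, and cells with control shRNA kept static. They are called the Ift88 shRNA, the sheared control and the static library, and the labels give the genotype as Ift88 knockdown in the first and WT in the others. Every group was grown with MCSF and RANKL for 2 days, and shear, made by swirling the dish, was applied to the 2 sheared groups for 24 hours. A static library with the Ift88 hairpin was not analysed here, and whether a knockdown difference depends on shear cannot be told apart from these 3. The labels name bone as the tissue and give no number of animals or cultures per library.

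Levels are in FPKM, read fragments scaled for transcript length and for the library's mapped fragments, so those of genes of different length can be set side by side. The spacing of low values gave a depth of about 34980000 fragments in the Ift88 shRNA library, 35240000 in the sheared control and 34660000 in the static library. The targeted gene Ift88 lies on chromosome 14 (57424064 to 57517936 in GRCm38, gene ID 21821). It was at 1.197 FPKM in the Ift88 shRNA library, 2.71 in the sheared control and 2.98 in the static library, and its ratio with Ift88 shRNA to the sheared control was 0.442 (0.356 to 0.551). Ranges in brackets after a ratio are 95% Clopper-Pearson intervals from estimated fragments, and they cover counting error only. With 1 library a group there is no replicate check and no p-value, and each difference describes these libraries. In bulk RNA, a larger share of dividing cells and more RNA of these genes per dividing cell cannot be told apart.

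Mitotic genes are transcribed periodically, late in the cell cycle. In vertebrates much of this timing is known to come from the MuvB complex with B-Myb (Mybl2) and from the transcription factor Foxm1, which act at a promoter element called the cell cycle homology region, often beside CCAAT boxes bound by NF-Y. Osteoclast precursors proliferate in response to MCSF and leave the cell cycle as RANKL drives their differentiation, and the mature osteoclast does not divide.

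Most of the 38 genes were highest with Ift88 shRNA, by small amounts. Their median level was 8.04 FPKM in the Ift88 shRNA library, 7.03 in the sheared control and 6.14 in the static library. The lowest of the 38 in every library was Cenpf, at 1.85, 1.37 and 1.46 FPKM. Ube2c was the highest in the Ift88 shRNA and sheared control libraries, at 25.4 and 22.4 FPKM, and Cenpa the highest in the static library, at 17.6. Added together, the 38 genes came to 334 FPKM in the Ift88 shRNA library, 306 in the sheared control and 269.5 in the static library.

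With Ift88 shRNA, 35 of the 38 were higher than in the sheared control, and 3 (Ccnb2, Pttg1 and Anln) were lower. Among the 10358 genes whose FPKM averaged 1 or more, 53.6% were higher and 46.4% lower. The median log2 ratio of (FPKM + 1) was 0.127 for the 38 genes and 0.010 for all genes tested. Differences were small: 2 of 38 genes were at least 1.2-fold higher on this scale, Ccna2 and Cenpf, against 3.25% of all genes, and none was 1.2-fold lower, against 2.29%. Of 37 genes with estimated fragments, 16 had a counting interval wholly above a ratio of 1 and none wholly below, against 18.4% above and 13.5% below among all genes.

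In the sheared control, 34 of the 38 genes were higher than in the static library, as were 46% of all genes, and 4 (Cenpf, Nuf2, Spc24 and Spc25) were lower, as were 53.9%. The median log2 ratio was 0.121, against -0.011 for all genes tested. At least 1.2-fold higher were 4 of 38 genes, Ccnb2, Ube2c, Birc5 and Pttg1 (1.94% of all genes), and at least 1.2-fold lower none (2.26%). Intervals lay above 1 for 15 of 37 genes and below 1 for none, against 14% and 17.8% of all genes. This comparison and the one above share the sheared control library, so a value that is high there by error raises one ratio and lowers the other.

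Between the libraries that share neither hairpin nor treatment, the Ift88 shRNA and the static library, 37 of the 38 were higher in the Ift88 shRNA library, as were 49.8% of all genes, and Spc25 was lower, as were 50.1%. The median log2 ratio was 0.239, against -0.0003 for all genes. For each gene this log2 ratio is the sum of its ratios in the comparisons above, so it is no further measurement. Here 15 of 38 genes were at least 1.2-fold higher (4.79% of all genes), none was 1.2-fold lower (4.48%), and none reached 1.5-fold on this scale. Intervals lay above 1 for 30 of 37 genes and below 1 for none, against 21.2% and 19.5% of all genes. Ube2c had the largest of these differences, a plain FPKM ratio of 1.51 (1.34 to 1.70). Over the 6625 tested genes in the members' own range of mean level, the medians were 0.017, -0.026 and -0.008 in the order of the comparisons above, a background added after the values were seen.

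**Figure D1:**
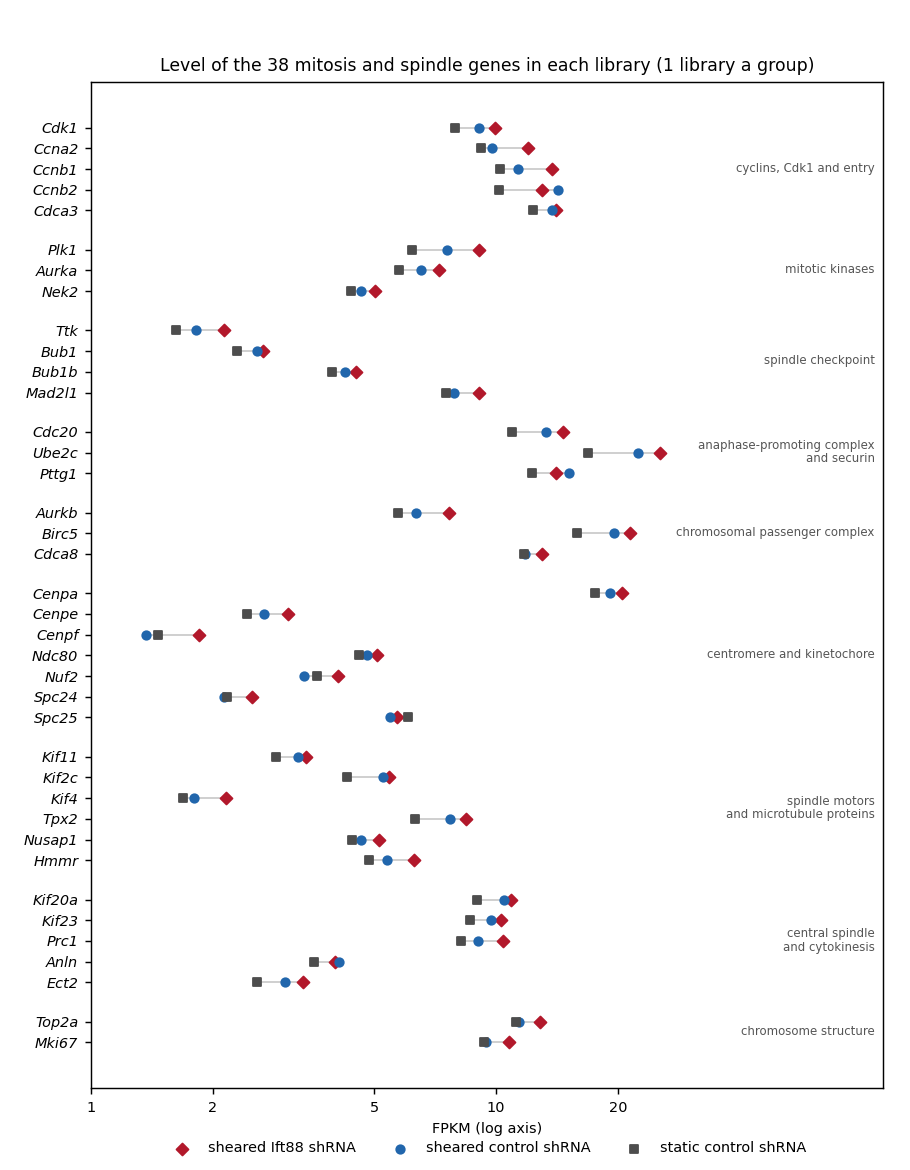
Level of each of the 38 genes in FPKM (log axis) in the 3 libraries, ordered by role; each point is 1 library and the grey line joins the 3 values of a gene. The static library is the lowest of the 3 for most genes, with Cenpf, Nuf2, Spc24 and Spc25 as the exceptions.

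The promoters of these genes share sequence features that their selection did not use. RefSeq promoters of build GRCm38.p6, from 250 bases before to 50 after a gene's start, were matched for 33 of the 38 genes, the others being Kif20a, Ccna2, Spc24, Aurkb and Tpx2. The core of the cell cycle homology region, TTTGAA, was found on either strand in 24 of the 33 genes (72.7%), against 14.3% of 8393 tested genes with a promoter. CCAAT was found in 25 of the 33 (75.8%, against 43.2%), and both motifs in 21 (63.6%, against 5.99%). Taking 1 promoter a gene, TTTGAA lay within 50 bases of the start in 22 of the 33 genes (66.7%), against 2.88% of tested genes. The E2F motifs TTTCCCGC and TTTGGCGC, which are typical of S phase genes, were in none of the 33 windows and in 3.62% of those of tested genes. A match is a run of letters and not a shown binding site. The promoters below show this arrangement for the 4 genes with both motifs that had the highest mean level, and for Ccnb2, which was added after its values were seen because its shear ratio was the largest of the 38. Capitals mark TTTGAA and CCAAT on either strand (TTCAAA and ATTGG when reversed); neighbouring matches overlap in Ube2c. The windows are Ube2c at chr2:164769679-164769978 (plus strand), Cenpa at chr5:30666636-30666935 (plus), Cdca3 at chr6:124829926-124830225 (plus), Cdc20 at chr4:118437294-118437593 (minus) and Ccnb2 at chr9:70421505-70421804 (minus).
Ube2c: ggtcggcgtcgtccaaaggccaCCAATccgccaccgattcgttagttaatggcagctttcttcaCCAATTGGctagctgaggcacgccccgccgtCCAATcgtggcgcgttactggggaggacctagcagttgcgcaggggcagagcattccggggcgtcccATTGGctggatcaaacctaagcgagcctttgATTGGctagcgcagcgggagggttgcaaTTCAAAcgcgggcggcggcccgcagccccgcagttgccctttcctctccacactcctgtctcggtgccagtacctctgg
Cenpa: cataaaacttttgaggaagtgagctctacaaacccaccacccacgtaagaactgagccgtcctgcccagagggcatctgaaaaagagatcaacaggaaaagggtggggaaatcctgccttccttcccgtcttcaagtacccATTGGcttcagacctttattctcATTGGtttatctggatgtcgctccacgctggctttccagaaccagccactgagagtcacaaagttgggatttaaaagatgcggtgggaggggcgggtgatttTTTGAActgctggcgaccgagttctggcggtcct
Cdca3: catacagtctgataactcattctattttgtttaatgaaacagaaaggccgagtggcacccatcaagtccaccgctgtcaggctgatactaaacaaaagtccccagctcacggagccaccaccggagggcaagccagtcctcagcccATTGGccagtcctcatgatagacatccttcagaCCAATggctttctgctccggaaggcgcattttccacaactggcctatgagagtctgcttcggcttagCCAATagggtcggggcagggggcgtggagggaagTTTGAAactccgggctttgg
Cdc20: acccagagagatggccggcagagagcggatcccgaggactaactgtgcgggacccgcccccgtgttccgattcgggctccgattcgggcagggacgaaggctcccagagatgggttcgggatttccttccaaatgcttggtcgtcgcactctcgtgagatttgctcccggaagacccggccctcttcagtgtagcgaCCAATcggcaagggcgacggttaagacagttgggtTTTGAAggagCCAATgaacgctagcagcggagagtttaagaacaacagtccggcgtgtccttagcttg
Ccnb2: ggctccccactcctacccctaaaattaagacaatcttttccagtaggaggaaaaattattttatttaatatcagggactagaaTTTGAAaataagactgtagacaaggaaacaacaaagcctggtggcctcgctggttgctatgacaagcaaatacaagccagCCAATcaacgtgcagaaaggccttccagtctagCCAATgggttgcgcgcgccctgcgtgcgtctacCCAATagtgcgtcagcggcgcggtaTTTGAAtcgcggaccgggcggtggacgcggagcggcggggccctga
In Ube2c a reversed TTTGAA starts at position -29 from the transcription start, and CCAAT boxes on either strand start at positions -228, -186, -183, -155, -88 and -57. In Ccnb2 a TTTGAA starts at position 5, with CCAAT boxes at -87, -54 and -21 and another TTTGAA at -167. Cdc20 has TTTGAA at -18, between CCAAT boxes at -53 and -8. With Ift88 shRNA over the sheared control, the median log2 ratio was 0.134 for the 21 genes with both and 0.107 for the other 12. For the sheared control over static, these medians were 0.121 and 0.110. Among all tested genes with a promoter, the 503 with both motifs had medians of 0.023 and -0.011 in these comparisons. The medians were 0.010 and -0.010 for the 7890 that did not have both.

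The roles hold few genes each, and their counts are to be read against all genes. Of these, 53.6% were higher with Ift88 shRNA and 46% were higher with shear. Counting intervals lay above 1 for 18.4% with Ift88 shRNA and for 14% with shear. Cyclins and Cdk1 form the engine of mitotic entry. Ccna2 (chromosome 3, 36564865 to 36573038), the cyclin of S phase and early mitosis, was at 11.95 FPKM in the Ift88 shRNA library, 9.76 in the sheared control and 9.17 in the static library. Its ratio with Ift88 shRNA was 1.22 (1.12 to 1.33) and its shear ratio 1.06 (0.970 to 1.17). Ccnb1, the main mitotic cyclin, was at 13.7 FPKM in the Ift88 shRNA library, 11.3 in the sheared control and 10.2 in the static library, with ratios of 1.21 (1.11 to 1.32) for Ift88 shRNA and 1.11 (1.01 to 1.22) for shear. Ccnb2 (chromosome 9, 70407689 to 70421554), another B-type cyclin, was highest in the sheared control, with 12.98 FPKM in the Ift88 shRNA library, 14.2 in the sheared control and 10.1 in the static library. It ranked 32 of 10358 genes for shear, with a ratio of 1.40 (1.25 to 1.58), and stood at 0.912 (0.815 to 1.02) with Ift88 shRNA. Cdk1, the kinase these cyclins activate, was at 9.91 FPKM in the Ift88 shRNA library, 9.06 in the sheared control and 7.92 in the static library, with intervals above 1 in both comparisons. Cdca3, which promotes mitotic entry by helping to remove the Cdk1 inhibitor Wee1, was at 14.05, 13.7 and 12.3 FPKM in the same order of libraries.

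The 3 mitotic kinases were all higher with Ift88 shRNA and all higher with shear, against 53.6% and 46% of all genes. Plk1, which acts in mitotic entry, spindle assembly and cytokinesis, was at 9.09 FPKM in the Ift88 shRNA library, 7.55 in the sheared control and 6.21 in the static library. Its ratios were 1.204 (1.07 to 1.35) for Ift88 shRNA and 1.22 (1.07 to 1.38) for shear, and no other of the 3 kinases had intervals above 1 in these comparisons. Aurka, the centrosomal and spindle kinase, was at 7.25, 6.52 and 5.75 FPKM in the same order. Nek2, a kinase of centrosome separation, was at 5.01, 4.65 and 4.37 FPKM, and both its intervals included 1.

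Spindle checkpoint genes hold back anaphase until every chromosome is attached. Mad2l1, which encodes the checkpoint effector Mad2, was at 9.09 FPKM in the Ift88 shRNA library, 7.87 in the sheared control and 7.51 in the static library, a ratio of 1.16 (1.01 to 1.32) for Ift88 shRNA. Bub1b, a subunit of the same inhibitory complex, was at 4.51, 4.23 and 3.94 FPKM in that order. Bub1, the kinase that recruits checkpoint proteins to kinetochores, was at 2.66, 2.57 and 2.29 FPKM. Ttk, the upstream checkpoint kinase Mps1, was at 2.13, 1.81 and 1.62 FPKM. All 4 were higher with Ift88 shRNA and all 4 with shear. The Mad2l1 interval for Ift88 shRNA was the only one of these 8 that lay above 1. Among all genes, 18.4% of intervals for Ift88 shRNA and 14% for shear lay above 1.

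Genes of the anaphase-promoting complex and its target had the highest median shear ratio of the 9 roles. Ube2c (chromosome 2, 164769929 to 164772902), the ubiquitin-conjugating enzyme of that complex, was at 25.4 FPKM in the Ift88 shRNA library, 22.4 in the sheared control and 16.9 in the static library. Its shear ratio was 1.33 (1.18 to 1.501) and its ratio with Ift88 shRNA 1.14 (1.02 to 1.27). Cdc20 (chromosome 4, 118432901 to 118437343), the activator that brings substrates to the complex, was at 14.6, 13.2 and 10.9 FPKM in the same order, a shear ratio of 1.21 (1.09 to 1.35). Pttg1, which encodes securin, the protein destroyed to release sister chromatids, was at 14.01 FPKM in the Ift88 shRNA library, 15.2 in the sheared control and 12.3 in the static library. Like Ccnb2 it was highest in the sheared control, with ratios of 0.924 (0.781 to 1.09) for Ift88 shRNA and 1.24 (1.04 to 1.48) for shear. The median log2 shear ratio of these 3 genes was 0.287.

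The chromosomal passenger complex corrects faulty attachments and later positions the cleavage furrow. Birc5 (chromosome 11, 117849237 to 117855743), which encodes survivin, was at 21.4 FPKM in the Ift88 shRNA library, 19.6 in the sheared control and 15.8 in the static library, a shear ratio of 1.24 (1.09 to 1.41). Aurkb, the kinase of the complex, was at 7.63, 6.35 and 5.73 FPKM in the same order, which is a ratio of 1.202 (1.05 to 1.38) for Ift88 shRNA. Cdca8, which encodes borealin, was at 12.96 FPKM in the Ift88 shRNA library and nearly level in the others, at 11.8 in the sheared control and 11.7 in the static library.

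Centromere and kinetochore proteins link chromosomes to the spindle. With Ift88 shRNA 7 of these 7 genes were higher, against 53.6% of all genes, and with shear 3 of 7 were, which is close to the 46% of all genes. Their median log2 ratio was 0.146 for Ift88 shRNA and -0.017 for shear, and how they differ from the other roles was not tested. Cenpf (chromosome 1, 189640606 to 189688107), a large protein of the outer kinetochore, was at 1.85 FPKM in the Ift88 shRNA library, 1.37 in the sheared control and 1.46 in the static library. Its ratio with Ift88 shRNA, 1.35 (1.21 to 1.52), was the largest plain ratio of the 38, with a shear ratio of 0.935 (0.827 to 1.05). Nuf2, a subunit of the microtubule-binding Ndc80 complex, was at 4.06, 3.35 and 3.62 FPKM in the same order, which is a ratio of 1.21 (1.02 to 1.43) for Ift88 shRNA. The other subunits of that complex were Ndc80 at 5.09, 4.80 and 4.60 FPKM, Spc24 at 2.50, 2.12 and 2.16 FPKM and Spc25 at 5.69, 5.46 and 6.07 FPKM in the same order, all with intervals that included 1. Spc25 was the 1 gene of the 38 that was higher in the static library than in the Ift88 shRNA library. Cenpe, a kinesin that moves chromosomes to the spindle equator, was at 3.07, 2.67 and 2.43 FPKM, which is a ratio of 1.15 (1.04 to 1.27) for Ift88 shRNA. Cenpa, the histone H3 variant that marks centromeres, was at 20.4, 19.1 and 17.6 FPKM, with no interval because its shortest transcript is not over 500 bases.

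**Figure D2:**
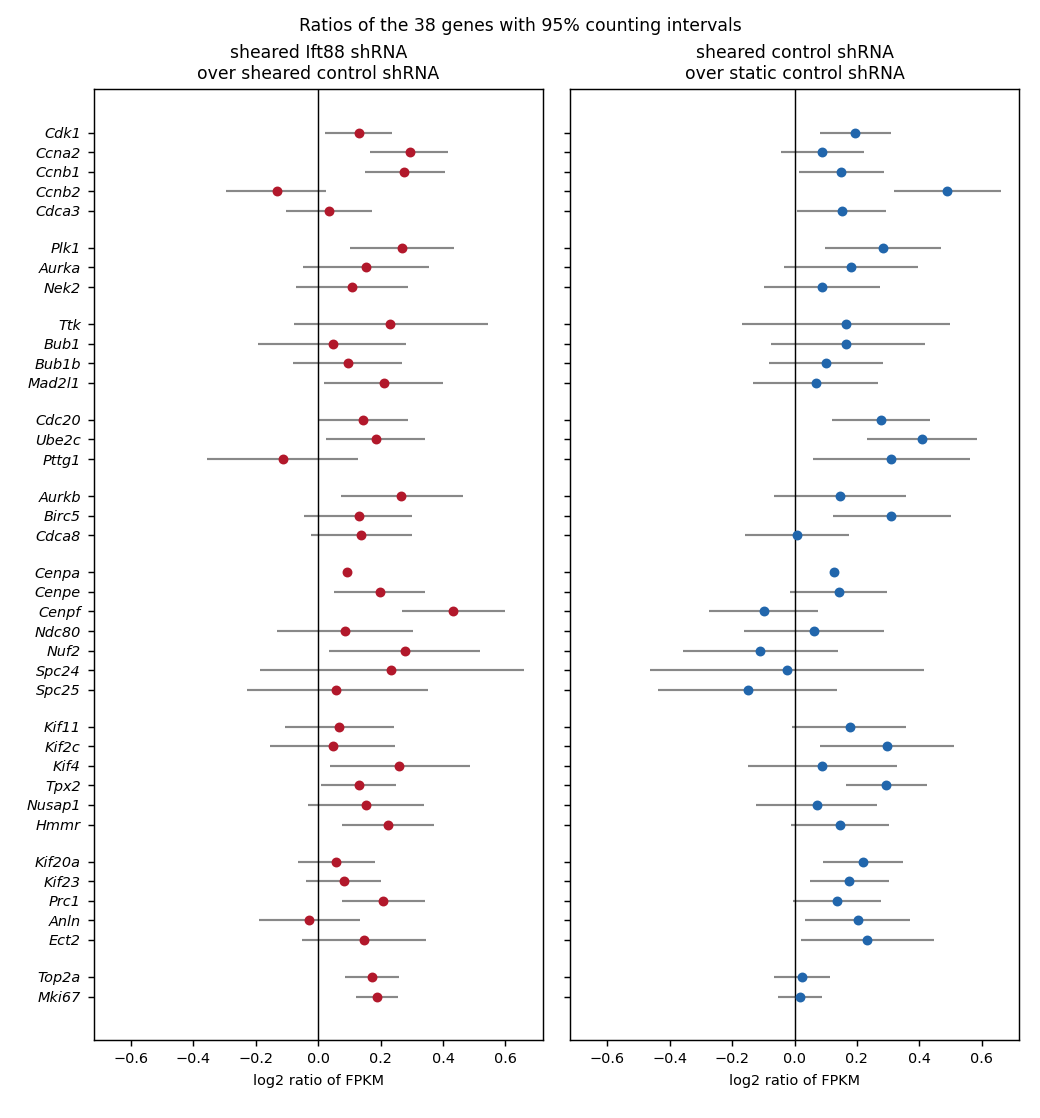
Log2 ratio of FPKM for each of the 38 genes, Ift88 shRNA over sheared control on the left and sheared control over static on the right; points are ratios of single libraries and lines are 95% counting intervals, which Cenpa lacks. Ccnb2 is at 0.912 on the left and 1.40 on the right as a plain ratio, and Cenpf at 1.35 and 0.935.

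Spindle motors and microtubule proteins build and focus the bipolar spindle. Tpx2, which activates Aurka and nucleates microtubules near chromosomes, was at 8.44 FPKM in the Ift88 shRNA library, 7.71 in the sheared control and 6.29 in the static library, a ratio of 1.09 (1.01 to 1.19) for Ift88 shRNA and a shear ratio of 1.23 (1.12 to 1.34). Kif2c, a kinesin that depolymerises microtubules at centromeres, was at 5.44, 5.26 and 4.29 FPKM in the same order, a shear ratio of 1.23 (1.06 to 1.42). Hmmr, a spindle pole protein, was at 6.28, 5.37 and 4.86 FPKM, which is a ratio of 1.17 (1.05 to 1.29) for Ift88 shRNA. Kif4, a chromosome-bound kinesin, was at 2.15, 1.797 and 1.69 FPKM, which is a ratio of 1.198 (1.03 to 1.40) for Ift88 shRNA. Kif11, the motor that pushes spindle poles apart, was at 3.39, 3.24 and 2.86 FPKM, and Nusap1, a microtubule-bundling protein, at 5.15, 4.63 and 4.41 FPKM. All 6 genes were higher with Ift88 shRNA than in the sheared control and all 6 with shear, against 53.6% and 46% of all genes. For Kif11 and Nusap1 both counting intervals included 1.

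Genes of the central spindle and cytokinesis, which separate the daughter cells, were higher with shear in 5 of 5 cases. Kif20a, a kinesin that brings Aurkb and its partners to the central spindle, was at 10.9 FPKM in the Ift88 shRNA library, 10.4 in the sheared control and 8.97 in the static library, a shear ratio of 1.16 (1.06 to 1.27). Kif23, a motor of the centralspindlin complex, was at 10.3, 9.72 and 8.61 FPKM in the same order, a shear ratio of 1.13 (1.03 to 1.23). Ect2, the exchange factor that activates RhoA at the furrow, was at 3.34, 3.01 and 2.56 FPKM, a shear ratio of 1.18 (1.01 to 1.36). Prc1, which crosslinks the microtubules of the midzone, was at 10.4, 9.01 and 8.21 FPKM, which is a ratio of 1.16 (1.05 to 1.27) for Ift88 shRNA. Anln, the actin-binding scaffold of the furrow, was at 4.004 FPKM in the Ift88 shRNA library, 4.09 in the sheared control and 3.55 in the static library, a shear ratio of 1.15 (1.02 to 1.29). With Ift88 shRNA, Prc1 was the 1 gene of these 5 whose interval lay above 1, which is near the 18.4% of all genes.

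Top2a and Mki67, whose products untangle and coat mitotic chromosomes, were measured with the most fragments and had shear ratios near 1. Mki67, the proliferation marker Ki-67, was at 10.7 FPKM in the Ift88 shRNA library, 9.43 in the sheared control and 9.33 in the static library. Its ratio with Ift88 shRNA was 1.14 (1.09 to 1.19) and its shear ratio 1.01 (0.963 to 1.06). Top2a, DNA topoisomerase II alpha, was at 12.8, 11.4 and 11.2 FPKM in the same order, with ratios of 1.13 (1.06 to 1.198) and 1.02 (0.955 to 1.08). Mki67 rested on up to 3715 estimated fragments in a library and Spc24, the most thinly measured gene with an estimate, on as few as 89.

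**Figure D3:**
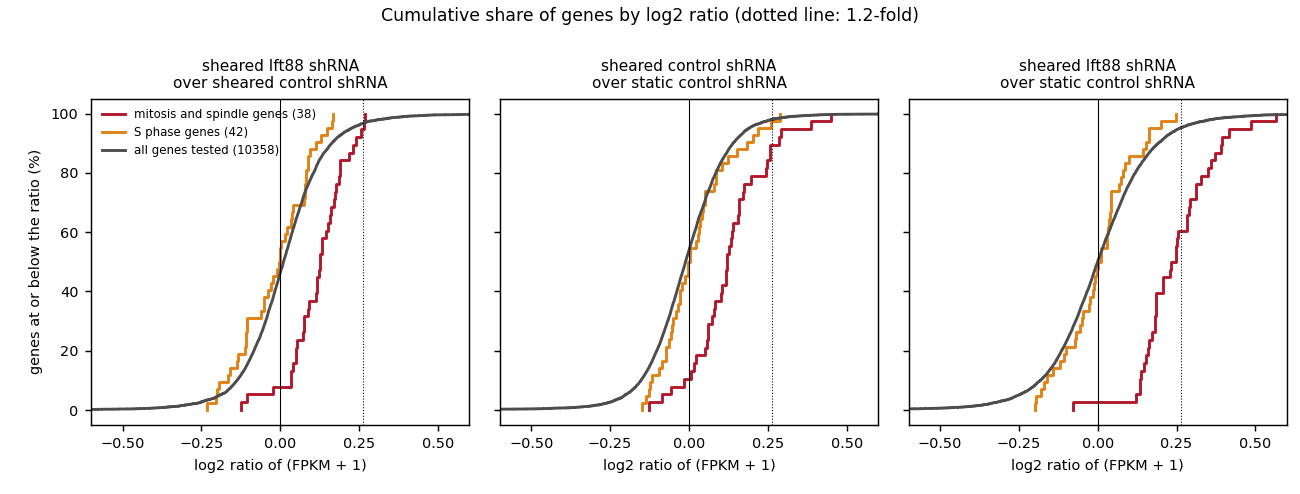
Cumulative share of genes (vertical axis, percent) by log2 ratio of (FPKM + 1) (horizontal axis) for the 38 genes, 42 S phase genes and all 10358 genes tested, in 3 comparisons; the dotted line is 1.2-fold and genes beyond 0.6 in either direction are outside the plot. The 38 genes have medians of 0.127, 0.121 and 0.239 from left to right.

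Other mitotic genes, taken from lists of 107 genes that share no member with the 38, had smaller medians. Of the 98 that passed the filter on low values, 68 were higher with Ift88 shRNA (median log2 ratio 0.046) and 68 with shear (median 0.055), and 71 were higher in the Ift88 shRNA than in the static library (median 0.111). Among all genes tested, 53.6%, 46% and 49.8% were higher in these comparisons. With Ift88 shRNA, 3 of the 98 were at least 1.2-fold higher, which is no more than the 3.25% of all genes, and 1 was 1.2-fold lower (2.29% of all genes). With shear these counts were 5 (1.94%) and 0 (2.26%), and between the Ift88 shRNA and static libraries 16 (4.79%) and 1 (4.48%). The sublists were unequal. Spindle and motor genes had medians of 0.137 for Ift88 shRNA and 0.141 for shear over 15 genes, and cytokinesis genes 0.093 and 0.115 over 8 genes. Kinetochore genes had medians of 0.010 and 0.052 over 27 genes, and condensin and cohesion genes 0.046 and 0.028 over 13. Regulators of mitotic entry and transcription had medians of 0.061 and 0.093 over 19 genes, of which 13 were higher and 6 lower in each of these comparisons. The 16 core genes of the anaphase-promoting complex, which is present through much of the cell cycle, had medians of 0.024 and -0.027.

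The genes named next from these lists were picked for the size of their ratios and do not stand for their lists. Foxm1, a transcription factor of mitotic genes, was at 4.83 FPKM in the Ift88 shRNA library, 4.39 in the sheared control and 3.52 in the static library, a shear ratio of 1.24 (1.11 to 1.395). Fam64a, which encodes a mitotic regulator, was at 8.05, 7.30 and 5.49 FPKM in the same order, a shear ratio of 1.33 (1.13 to 1.57). Mybl2, which encodes B-Myb, was below the filter, at 1.03 FPKM in the Ift88 shRNA library, 0.869 in the sheared control and 0.942 in the static library, and is named after its values were seen. Ccnf was at 6.48, 6.70 and 5.52 FPKM. Cdc25b, a phosphatase that activates Cdk1, was at 13.4 FPKM in the Ift88 shRNA library, 10.5 in the sheared control and 10.7 in the static library, a ratio of 1.28 (1.18 to 1.39) for Ift88 shRNA. Its opponent Wee1, the kinase that inhibits Cdk1, was higher too, at 7.11, 5.81 and 5.54 FPKM, which is a ratio of 1.22 (1.10 to 1.36). From the cohesion list, Cdca5, which encodes sororin, a protector of sister chromatid cohesion, was at 3.94, 2.87 and 3.06 FPKM, which is a ratio of 1.37 (1.13 to 1.66) for Ift88 shRNA.

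The remaining named genes of these lists included microtubule proteins and some that were lower. The kinesin gene Kif18b was at 3.29 FPKM in the Ift88 shRNA library, 2.61 in the sheared control and 2.11 in the static library, and the kinesin gene Kifc1 at 7.08, 6.35 and 5.26 FPKM. Ckap2, a microtubule-associated protein gene, was at 3.52, 3.42 and 2.50 FPKM, and Tacc3, which stabilises spindle fibres, at 10.98, 11.3 and 9.37 FPKM. Fzr1, the activator of the anaphase-promoting complex in late mitosis and G1, was at 17.0, 15.4 and 13.04 FPKM. With Ift88 shRNA, Mis18a, from the kinetochore list, was lower, at 8.81 FPKM against 10.2 in the sheared control. Cdc26, a subunit of the anaphase-promoting complex, was lower too, at 22.1 against 25.4 FPKM. With shear, the kinetochore gene Cenpq was lower, at 2.45 FPKM in the sheared control against 3.06 in the static library.

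S phase genes had medians near 0. Of 42 S phase genes that passed the filter, 19 were higher with Ift88 shRNA (median log2 ratio -0.003) and 21 with shear (median -0.0004), against 53.6% and 46% of all genes, and none and 1 of them were at least 1.2-fold higher (3.25% and 1.94% of all genes). Ccne1, the cyclin of S phase entry, was at 2.26 FPKM in the Ift88 shRNA library, 2.75 in the sheared control and 2.07 in the static library, and the replication clamp loader gene Rfc5 was at 7.65, 7.72 and 6.29 FPKM. Gins4, a subunit gene of the replicative helicase, was at 15.3, 18.2 and 15.5 FPKM in the same order, with Gins1 at 2.07, 2.54 and 2.07 and the origin recognition gene Orc6 at 4.03, 4.74 and 4.27 FPKM. The ratio of summed levels of the S phase list was 0.953 for Ift88 shRNA and 1.02 for shear. For the 38 mitotic genes it was 1.09 and 1.13. The S phase sums, 528, 554 and 542 FPKM in the same order of libraries, are weighted to abundant genes. Their largest part was Pcna, at 178.5, 200.2 and 194.0 FPKM, so these ratios do not stand for the whole list.

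G1 cyclins, their kinases and Cdk inhibitors had medians of 0.030 for Ift88 shRNA and -0.017 for shear over 19 genes. The inhibitor gene Cdkn1b, which encodes p27, was at 9.29 FPKM in the Ift88 shRNA library, 10.3 in the sheared control and 8.96 in the static library, and Cdkn1c, which encodes p57, at 36.5, 40.1 and 35.7 FPKM. Cdkn2c, an inhibitor of Cdk4 and Cdk6, was at 10.6, 8.88 and 9.49 FPKM. Its targets differed in opposite directions with Ift88 shRNA, Cdk6 at 5.75 FPKM against 4.69 in the sheared control and Cdk4 at 92.9 against 106.7. Myc, a transcription factor of cell growth, was at 4.61, 3.72 and 4.25 FPKM in the 3 libraries, and Rb1, which restrains S phase entry, at 11.4, 12.2 and 13.9 FPKM.

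**Figure D4:**
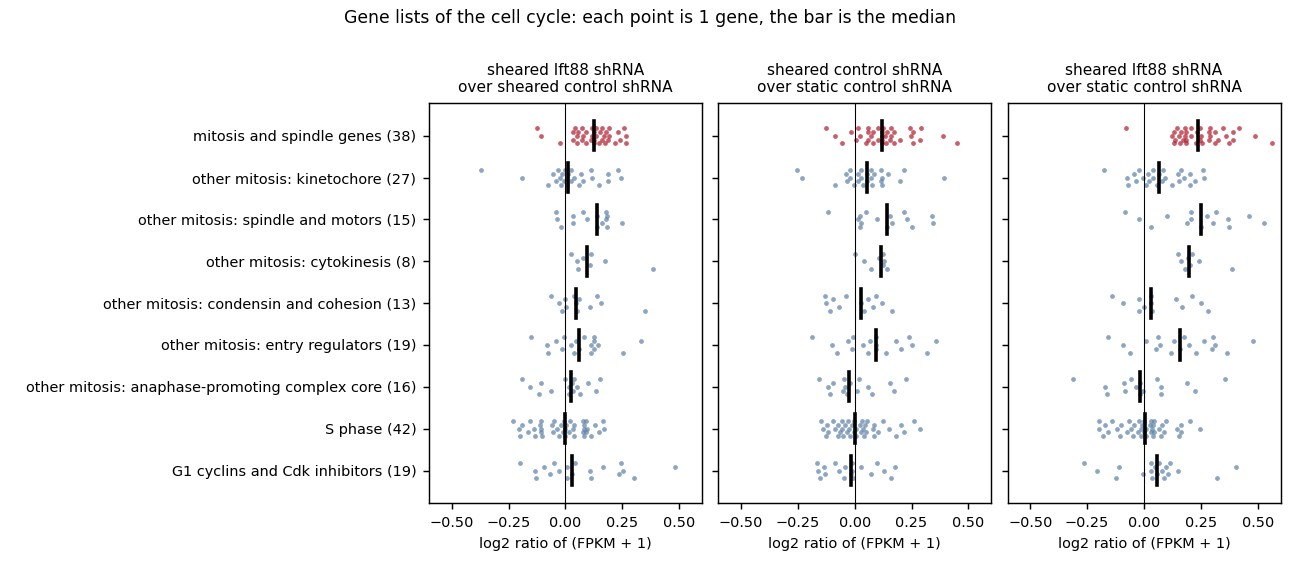
Log2 ratio of (FPKM + 1) of every gene that passed the filter in 9 lists, in 3 comparisons; each point is 1 gene and the black bar is the list's median, with the number of genes in brackets. The 38 genes and every other mitosis list except the core of the anaphase-promoting complex have medians above 0 in each panel. The S phase medians are near 0.

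Ratios across all genes moved with transcript length and base composition. Over 10268 tested genes with a transcript length, the Spearman correlation of the shear ratio was -0.281 with length and 0.343 with GC content. Over the 38 genes it was -0.193 and 0.345. For Ift88 shRNA over the sheared control, the correlations over all these genes were 0.163 with length and 0.062 with GC content. For Ift88 shRNA over static they were -0.086 and 0.319. All points come from the same libraries and genes are not replicates, so no p-value is given. The 19 shorter genes of the set, up to 2895 bases, had a median shear log2 ratio of 0.137, against 0.020 for all tested genes up to that length. The 19 longer ones had 0.118, against -0.037. After ratios were centred in bins of length and GC content, the median of the 38 genes was 0.158 for shear and 0.121 for Ift88 shRNA, so both remained positive. The part of length and GC content in the single ratios was not tested.

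**Figure D5:**
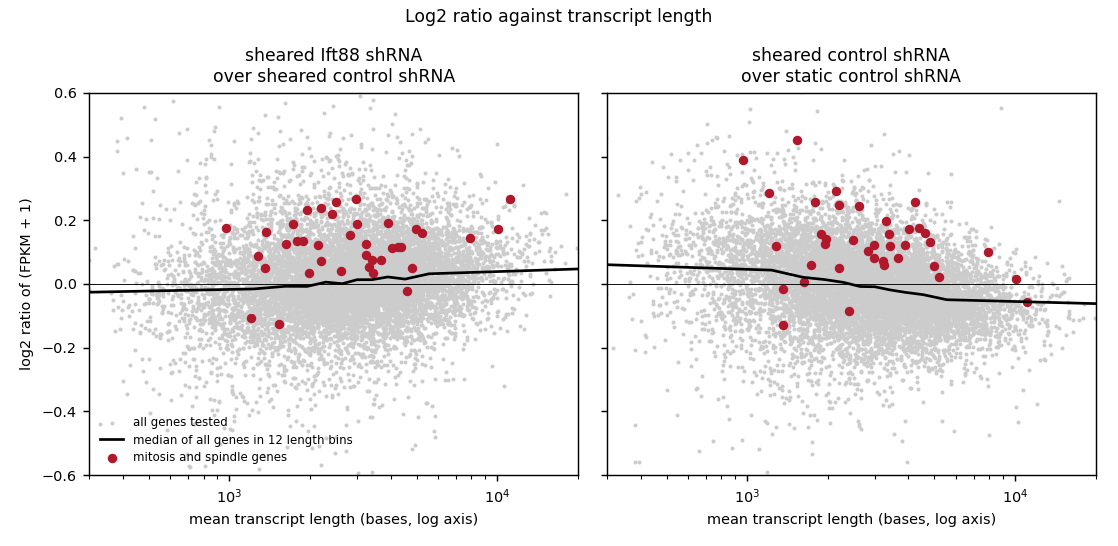
Log2 ratio of (FPKM + 1) against mean transcript length in bases (log axis) for the 38 genes (red) and all tested genes (grey), with the median of all genes in 12 length bins as a black line; values beyond 0.6 in either direction are outside the plot. The shorter and the longer 19 of the 38 genes have shear medians of 0.137 and 0.118.

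Markers were read in the same libraries to see which cells they held. Markers of the osteoclast lineage were present, with 8 of 11 passing the filter and a summed level of 413 FPKM in the Ift88 shRNA library, 339 in the sheared control and 445 in the static library. Acp5, the tartrate-resistant acid phosphatase of osteoclasts, was at 83.05, 52.9 and 97.7 FPKM, while Calcr, the calcitonin receptor of mature osteoclasts, was at 0.117 FPKM or less in each. The sums rest on a few abundant genes. Counts of higher markers are to be read against all genes tested. Of these, 53.6% were higher with Ift88 shRNA, 46% with shear and 49.8% in the Ift88 shRNA than in the static library. Of the 8 markers past the filter, 7 were higher with Ift88 shRNA than in the sheared control (median log2 ratio 0.418), 1 was higher with shear (median -0.247), and 5 were higher in the Ift88 shRNA than in the static library (median 0.165). The 1 higher with shear was Itgb3, an integrin gene of osteoclasts, at 8.12 FPKM in the Ift88 shRNA library, 7.08 in the sheared control and 5.36 in the static library. The 7 macrophage markers summed to 2549, 2504 and 2542 FPKM, and in the same order of comparisons 5, 2 and 3 of them were higher. Haematopoietic progenitor markers, which would mark other dividing cells, had 0 of 8 past the filter and summed to 0.802, 0.423 and 0.632 FPKM, with Flt3 at 0 in all 3 libraries. Lymphoid (0.475, 0.666 and 0.664 FPKM over 8 genes) and erythroid markers (0.0545, 0.105 and 0.0735 over 6 genes) were also near 0. Stromal and osteoblast markers, with 5 of 12 past the filter, summed to 12.1, 9.87 and 12.4 FPKM, with Ibsp at 0 in every library, and 4, 1 and 2 of the 5 were higher in that order of comparisons. Neutrophil markers, with 5 of 8 past the filter, summed to 45.0, 43.4 and 77.4 FPKM, with Retnlg at 0 in every library, and 3, 0 and 0 of the 5 were higher in that order. The part of the osteoclast, stromal and neutrophil differences in the mitotic ratios was not tested.

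Some values are less certain because of neighbouring genes. The treatment of strand is not given in the sources used here, and 6 of the 38 genes overlap another gene that passed the filter. Ccna2 overlaps Exosc9 by 863 bases, and Exosc9 was level, at 14.8, 14.98 and 14.9 FPKM in the Ift88 shRNA, sheared control and static libraries. Aurka overlaps Cstf1 by 242 bases, and Cstf1 moved in the same order as Aurka, at 17.6, 16.1 and 14.3 FPKM. Cdc20 overlaps Elovl1 by 53 bases, and Elovl1 moved in the same order as Cdc20, at 129.8, 119.3 and 108.1 FPKM. Those levels are far above the mean of 12.9 FPKM for Cdc20. Prc1 overlaps Rccd1 by 21669 bases, with Rccd1 at 1.08, 1.12 and 1.17 FPKM. Kif20a overlaps Cdc23 by 4930 bases, with Cdc23 at 6.34, 6.25 and 6.82 FPKM, and Brd8 by 240 bases, with Brd8 at 8.67, 8.43 and 9.01 FPKM. Nusap1 overlaps Oip5 by 208 bases, and Oip5 moved in the same order as Nusap1, at 1.55, 1.36 and 1.27 FPKM. How far shared reads enter these members' values was not tested.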

How the data were processed

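Gene expression was measured by mRNA sequencing (TruSeq mRNA kit, TRIzol RNA, per the labels' protocols) in 3 libraries, 1 per group. The authors deposited FPKM per gene. The tools are, per the submitters' processing notes, Cufflinks 2.2.1, TopHat2 2.0.13, Trimmomatic 0.32 and bcl2fastq 1.8.4, and the build is mm10. How they were set is not given in the sources used. Because FPKM is relative to a library's total, a few abundant genes can shift the rest.

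Log2 ratios of (FPKM + 1) were computed for the 10358 genes whose FPKM averaged 1 or more, and genes past 1.2-fold were counted. The added 1 understates differences of low genes; folds beside genes are plain FPKM ratios. Depth and a fragment length of 180 bases were fitted to low values, of which 63.9% to 64.8% came out whole within 0.1 fragment. Fragments were estimated from a gene's shortest GENCODE transcript, if over 500 bases, and intervals cover counting error only. The ratio and depth steps were tested on simulated data. Python 3.11.15, SciPy 1.17.1 and pandas 2.3.3 were used.

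Members and lists were chosen with earlier results of these data known. All 38 members are named. Other genes named by rule had a mean FPKM of 2 or more and the largest absolute log2 ratios in their lists. These were 6 mitosis genes in each of the 3 comparisons and 4 S phase and 4 G1 genes in each of the first 2. Outside that rule, Ift88, cell type markers, genes that overlap members, Mybl2 and Pcna were named too, Mybl2 and Pcna after their values were seen. Ly6g was the 1 listed symbol with no match. With 1 library a group no test was run. RefSeq promoters and coordinates are of GRCm38.p6, the build of mm10. Alternatives were 2 other pseudocounts, 2 filters, 2 scalings and centring for length and GC content.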

Additional observations from a re-analysis of the deposited data

How the results depend on the processing

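The medians of the 38 genes kept a positive sign in the 3 comparisons under every alternative run, and at least 1.2-fold lower genes stayed at 0 in each. With a pseudocount of 5 the medians were 0.075 (Ift88 shRNA over sheared control), 0.077 (sheared control over static) and 0.140 (Ift88 shRNA over static). In that order, 0, 2 and 5 genes were at least 1.2-fold higher, against 0.888%, 0.724% and 1.81% of all genes. With a pseudocount of 0.1, 5, 8 and 21 genes were, against 5.45%, 3.24% and 6.84% of all genes. The median of Ift88 shRNA over static was then 0.295. With a mean FPKM of at least 5, 23 of the 38 genes remain, and the median of Ift88 shRNA over static was 0.291. With Ift88 shRNA over the sheared control, 1 gene was at least 1.2-fold higher (2.11% of all genes past that filter). By any amount 21, 22 and 22 were higher, against 52.5%, 47.8% and 50.3% of all genes past that filter. The counts are lower because fewer genes entered. With equal FPKM totals 4 genes were at least 1.2-fold higher with Ift88 shRNA over the sheared control (4.39% of all genes). After centring on the median of all genes 0 were (2.87% of all genes). Centring in bins of length and GC content gave a shear median of 0.158. So the number of the 38 genes past 1.2-fold depends on the scale, as does the share of all genes. The sign of the medians did not change. The pseudocounts and the removal of the filter keep the sign of every gene's ratio, so they could not change that of the medians. Of 753 values of single genes under the alternatives, 0 shifted by more than their counting error and 0 reversed from past 1.2-fold. For Cenpa, which has no interval, the limit was 0.1 on the log2 scale. Part of this was fixed in advance, because the 114 values without the filter and the 69 at a mean FPKM of at least 5 are unchanged ratios. A pseudocount cannot change a ratio's sign, and reversal was counted only for values past 1.2-fold. Below that fold, Anln changed sign with equal FPKM totals, from -0.023 to 0.0026 for Ift88 shRNA over the sheared control. No replicate could be left out, since each group has 1 library. No paired analysis was possible because no group has a second library. Depth limits the thin genes: the shear interval of Spc24 runs from 0.725 to 1.34.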
